A study of Caenorhabditis elegans with 2 samples.

Results

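CEH-45, a homeodomain protein of the nematode Caenorhabditis elegans, was mapped on the genome by chromatin immunoprecipitation and sequencing (ChIP-seq). The regions described here are the strong candidate peaks whose summit lay inside an exon of a protein-coding gene and away from gene starts. They were chosen from the larger of the authors' ranked lists for the series. Its 2000 peaks of highest signal were taken, and a peak was kept where its summit was in a coding gene's exon, outside the stretch that starts 1000 bp before and ends 250 bp after a coding transcript start, and over 250 bp from any gene for a tRNA, snRNA, snoRNA or rRNA. The rule kept 237 of 108916 candidates, in 234 genes. The signal that chose them is a measured value, so signals and ranks are given as a description and nothing is read from their height.

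The 2 samples were biological replicates of 1 group, and p-values play no part below because there was no other group to compare. Both came from strain RW12292, genotype st12292[ceh-45::TY1::EGFP::3xFLAG] I, in which genome editing with CRISPR inserted GFP and epitope tags at ceh-45. Late embryos, labelled as 2 hours of age and obtained by bleaching eggs, were used as whole organisms, chromatin was broken by sonication, and the tagged protein was pulled down through GFP, although the antibody field names ceh-45. Peak lists carry no transcript levels, so the stage could not be checked against marker genes, and signal from different cell types cannot be told apart.

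Homeodomain proteins of the goosecoid class, to which CEH-45 belongs, are transcription factors known to bind short sequences with the core TAATCC. Sites of such factors are usually sought in promoters and enhancers. Exons carry the sequence of the mature transcript, most of it coding, and their base composition follows the protein they encode. In nematodes, a large family of cuticle collagens is made of glycine-rich Gly-X-Y repeats, in which GGN codons write the glycine.

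The sequences below show what the summits looked like. The first set is of members that passed the authors' threshold, on chromosomes III and X of build ce11 (WBcel235), each reaching 50 bp to either side of the summit and written 5′ to 3′ on the strand of the gene. Capitals mark the 11 bases at the centre. The windows were chrIII:835934-836034 for dos-3, chrX:5429486-5429586 for pks-1, chrIII:10921593-10921693 for vab-7, chrIII:834575-834675 for zip-2 and chrIII:13292626-13292726 for set-25. The genes pks-1, vab-7 and zip-2 lie on the plus strand, and dos-3 and set-25 on the minus strand.
dos-3: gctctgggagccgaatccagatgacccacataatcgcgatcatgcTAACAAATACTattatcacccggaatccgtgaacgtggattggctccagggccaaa
pks-1: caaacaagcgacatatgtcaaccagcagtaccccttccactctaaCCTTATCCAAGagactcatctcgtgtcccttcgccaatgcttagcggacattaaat
vab-7: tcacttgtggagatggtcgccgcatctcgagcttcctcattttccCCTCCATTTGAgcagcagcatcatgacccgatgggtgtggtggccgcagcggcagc
zip-2: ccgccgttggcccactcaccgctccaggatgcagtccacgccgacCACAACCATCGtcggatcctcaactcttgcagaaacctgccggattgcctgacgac
set-25: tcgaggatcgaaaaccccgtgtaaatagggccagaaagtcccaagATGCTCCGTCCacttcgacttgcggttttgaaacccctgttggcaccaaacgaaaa

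The second set is of collagen genes, whose windows held part of the glycine repeat. In rol-1 the repeat begins just past the summit. Capitals mark GGN codons in the reading frame of the gene. The windows were chrX:11711515-11711615 (minus strand), chrII:12175501-12175601 (plus strand), chrIV:4656257-4656357 (minus strand) and chrX:16385026-16385126 (minus strand).
col-180: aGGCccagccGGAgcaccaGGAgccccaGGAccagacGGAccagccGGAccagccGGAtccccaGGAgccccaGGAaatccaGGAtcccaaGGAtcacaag
rol-1: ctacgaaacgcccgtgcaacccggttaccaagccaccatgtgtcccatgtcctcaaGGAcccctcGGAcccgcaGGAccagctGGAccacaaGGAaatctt
col-111: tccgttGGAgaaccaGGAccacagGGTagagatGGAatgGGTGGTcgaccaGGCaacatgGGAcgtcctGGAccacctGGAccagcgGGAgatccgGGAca
let-2: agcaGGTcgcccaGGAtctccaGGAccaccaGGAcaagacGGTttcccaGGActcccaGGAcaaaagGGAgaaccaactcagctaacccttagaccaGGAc

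The third set is of members that held a searched word, in capitals on whichever strand of the gene it was found. In pqn-41 and dyf-17 it is GGGCGG, which reads CCGCCC on the strand shown. In oac-4 and pals-26 it is TAATCC, the core of the goosecoid class, which reads GGATTA in oac-4. The windows were chrIII:1939104-1939204 (plus strand), chrV:19129680-19129780 (plus strand), chrII:3833822-3833922 (minus strand) and, for a stretch of 26 bases in the 3′ UTR, chrIII:4378848-4378873 (plus strand).
pqn-41: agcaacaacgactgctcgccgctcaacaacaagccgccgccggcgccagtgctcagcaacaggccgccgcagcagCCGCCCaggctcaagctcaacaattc
dyf-17: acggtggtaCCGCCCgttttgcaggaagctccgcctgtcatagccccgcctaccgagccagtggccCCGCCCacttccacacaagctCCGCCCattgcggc
oac-4: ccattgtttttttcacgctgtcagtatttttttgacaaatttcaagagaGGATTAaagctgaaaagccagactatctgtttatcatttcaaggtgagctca
pals-26: tcagttacgtTAATCCaacctacacc

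All 237 members were 304 bp wide and none overlapped another. Their signal in the larger list, a deposited value without a stated scale, ran from 50.3 to 175 with a median of 53.8. Signals were packed near the lower end: 139 members were under 55, 6 were above 70 and 3 were above 100. At the limit of the rule, the members just inside were in col-187 and ceh-39, with signals of 50.36 and 50.35, and the exonic candidates just outside were in arrd-19 and sbsp-1, with signals of 50.33 and 50.32. No read counts were given in the lists, so the depth behind each value is unknown. The intervals below are exact 95% binomial intervals (Clopper-Pearson), which cover counting error over peaks only.

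Along the ranked list, exonic candidates were scarce at the very top. Among the 500 strongest candidates, 6 (1.20%) were members. The next 500 held 58 (11.6%), ranks 1001 to 1500 held 80 (16%) and ranks 1501 to 2000 held 93 (18.6%). By the same annotation rule, exonic candidates were 21.2% of ranks 2001 to 4000 and 23.4% of ranks 4001 to 8000. The other 1763 of the 2000 strongest comprised 608 at promoters, 511 between genes, 385 in introns and 259 near small RNA genes.

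**Figure D1:**
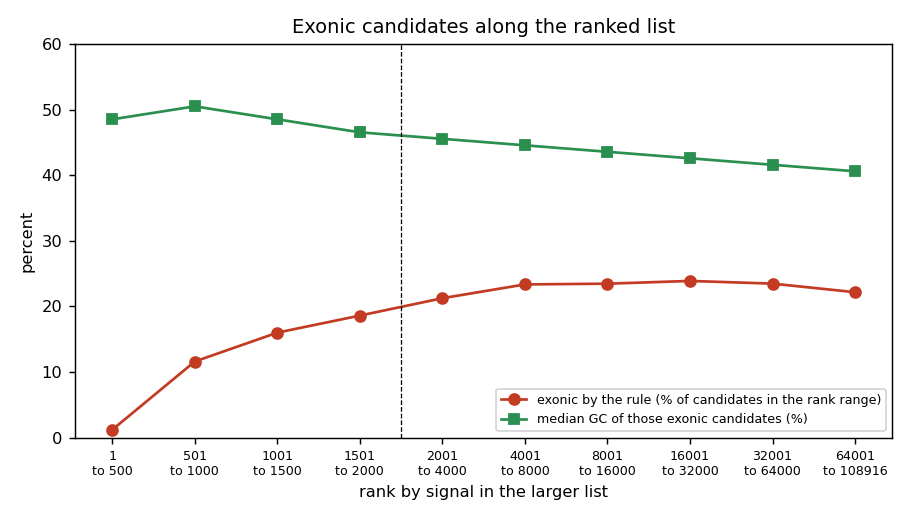
Share of candidates that were exonic by the rule (red circles, %) and the median GC content at their summits (green squares, %), by rank in the larger list; the dashed line marks rank 2000. The exonic share climbed from 1.20% in the first 500 ranks to 18.6% at ranks 1501 to 2000, and median GC was 50.5% at ranks 501 to 1000 and 40.6% in the last range.

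The irreproducible discovery rate (IDR), in the global form used here, estimates the share of peaks down to a given rank that fail to repeat. The authors' thresholded set at an IDR limit took in 21 members, or 8.86% (5.57 to 13.2), where overlap by at least 1 bp counts. Of all candidates, 0.533% overlapped this set, and because the rule used signal, nothing is read from the excess. Of the other strongest candidates, 495 (28.1%) overlapped it. The members' share followed the rule closely, at 32.8% of 64 with the 1000 strongest and 3.17% of 662 with the 4000 strongest. It was 5.67% where the rule took replicate 2's list alone and 5.82% where it took that of replicate 1. Overlap was still counted with the larger thresholded set of both replicates, so neither replicate was fully left out. In the conservative thresholded set 11 members (4.64%) were found, beside 0.446% of all candidates. The replicates' own thresholded sets held far fewer. That of replicate 1 held 1 member, in dos-3, beside 0.252% of candidates. That of replicate 2 held 4 members, in dos-3, pals-26, unc-62 and pks-1, beside 0.222%. The member in dos-3 was thus in all 4 thresholded sets.

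The members that passed stood in genes of varied function. The highest of them lay in dos-3, a gene of the family of secreted co-ligands of Notch receptors. It covered chrIII:835832-836135 in the last exon (11 of 11), and its signal was 53.8 in replicate 1's own list and 54.5 in replicate 2's, nearly equal. A member in pals-26 reached 49.5 in replicate 1 and 59.4 in replicate 2, with its summit in the 3′ UTR at chrIII:4378744-4379047. The pals-26 summit lay 11 bp from the annotated transcript end, so this peak also reached beyond the transcript. Values in unc-62, which encodes a Meis-class homeodomain protein, were less alike, at 20.3 in replicate 1 and 53.0 in replicate 2. That summit was in 5′ UTR, in exon 1 of 2 of an annotated transcript, at chrV:4507877-4508180. A member in pks-1, a polyketide synthase gene, had 30.2 in replicate 1 and 54.3 in replicate 2, at chrX:5429384-5429687 in exon 22 of 30.

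Several passing members lay in genes of signalling and transcription. In lit-1, whose product is the Nemo-like kinase of Wnt signalling, the values were 32.7 in replicate 1 and 34.7 in replicate 2 (chrIII:13723240-13723543, last exon). In vab-7, an even-skipped-class homeodomain gene, they were 29.1 and 40.4 (chrIII:10921491-10921794, exon 2 of 5). In zip-2, a bZIP factor known from the response to pathogens, they were 39.7 and 28.3 (chrIII:834473-834776, exon 4 of 6). The 3 genes were therefore not ordered alike by the replicates: zip-2 was the highest in replicate 1 and the lowest in replicate 2. The death-associated kinase gene dapk-1 had values of 28.5 and 31.0 (chrI:1324558-1324861), and the gene for the C3H1 zinc finger protein Y53G8AR.9 had 28.5 and 36.3, with its summit in the 3′ UTR (chrIII:3317896-3318199).

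Genes for adhesion, sensing and cilia were among the rest. In hmr-1, the classical cadherin gene, the signal was 35.0 in replicate 1 and 31.6 in replicate 2 (chrI:11093879-11094182, exon 1 of 10). In trp-4, which encodes a mechanosensory channel of the TRPN type, it was 37.4 and 37.5 (chrI:13908259-13908562, exon 12 of 24). In dyf-17, a gene of the ciliary list, it was 36.1 and 29.5 (chrV:19129578-19129881, exon 5 of 6). The values of these 3 lay between 29.5 and 37.5 in both replicates. The others that passed were in T26H5.8, set-25, pqn-32, set-16, W01G7.4, col-180, nspg-10, Y53F4B.12 and rol-1. Over all 21, replicate 1 ran from 20.3 to 53.8 with a median of 33.6, and replicate 2 from 22.97 to 59.4 with a median of 36.3. The 11 in the conservative set were those in dos-3, pals-26, pks-1, hmr-1, T26H5.8, lit-1, trp-4, zip-2, dyf-17, col-180 and nspg-10.

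Some members were strong without passing. The highest signal of all, 175, belonged to Y95D11A.5 (chrI:10952786-10953089, last exon), with 106 in replicate 1 and 99.7 in replicate 2. Its summit lay 4 bp from the annotated transcript end, so the peak reached beyond the gene. Its IDR was 0.000236, yet the larger thresholded set does not hold it, and it was the only one of 22 members with an IDR of at most 0.01 of which that is true. Of all candidates, 0.617% had such an IDR. Of the 31-base words around its summit, 90.6% occur more than once in the genome. Other members among the 20 strongest that did not pass lay in F13D12.3 (36.9 in replicate 1 and 29.0 in replicate 2), in the chemoreceptor gene srw-85 (23.3 and 37.8), in alg-2, an Argonaute of the microRNA pathway (33.5 and 30.2), and in pqn-41, a gene for a glutamine-rich, prion-like protein, with 34.1 in replicate 2 and no candidate in replicate 1. Over all members the median IDR was 0.0594, beside 0.0242 at the other strongest candidates and 0.649 at exonic candidates of lower rank. The IDR was above 0.05 in 137 members and above 0.1 in 64.

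The replicates' own ranked lists were then searched for a candidate at each member. A candidate overlapped 221 members (93.2%) in replicate 1 and 224 (94.5%) in replicate 2. Both lists had one at 208 members, or 87.8% (82.9 to 91.6), replicate 1 alone at 13, and replicate 2 alone at 16, and no member lacked one in both. Of lower-ranked exonic candidates, 18.03% were in both lists, and of the other strongest candidates 91.8%. Since the rule used signal over the same libraries, this difference is a description.

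Signals at the members were higher in replicate 1 at 124 and in replicate 2 at 84 of the 208 members found in both. Replicate 1 ran from 9.87 to 106 with a median of 28.7, and replicate 2 from 12.1 to 99.7 with a median of 25.1. The log2 ratio of replicate 1 to replicate 2 had a median of 0.15 with an SD of 0.60 over these members. The median absolute log2 ratio was 0.41, beside 0.38 at the other strongest candidates and 0.43 at lower exonic ones. At 22 members the replicates stood more than 2-fold apart. Replicate summits lay a median of 8 bp from the member's own in replicate 1 and 21.5 bp in replicate 2.

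**Figure D2:**
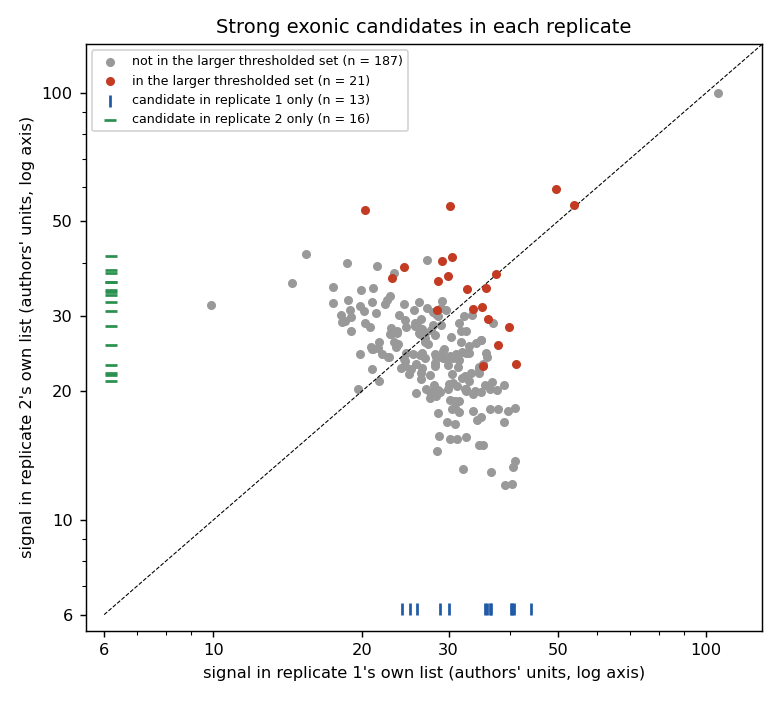
Signal of each member in replicate 1's own list against replicate 2's (log axes, the authors' units), with members in the larger thresholded set in red and ticks at the axes for members found in 1 replicate only; the dashed line marks equal values. The 21 red points run from 20.3 to 53.8 in replicate 1 and from 22.97 to 59.4 in replicate 2, and the highest point is Y95D11A.5.

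A measure less tied to the choice of members comes from applying the same rule to each replicate's list and reading the result in the other. The rule took 275 exonic peaks from replicate 1 and 282 from replicate 2. Of those from replicate 1, 19 were also among the 2000 strongest of replicate 2, or 6.91% (4.21 to 10.6). Of those from replicate 2, 17 were among the 2000 strongest of replicate 1, or 6.03% (3.55 to 9.48). These shares were below those of every other class in these 2 replicates, and the difference was not tested. The intervals count peaks and do not measure variation between replicates. The share was 16% and 16.8% for introns, 28.1% and 29.6% for promoters, 37.3% and 34.8% between genes, and 77.3% and 78.1% near small RNA genes. It was above that of exonic peaks ranked below the 2000 strongest, at 1.63% and 1.85%. Signal also differed between the classes. In replicate 1 its median was 32.2 for exons, 32.6 for introns, 33.8 for promoters, 34.9 between genes and 49.7 near small RNA genes. The part of signal in these shares was not tested.

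**Figure D3:**
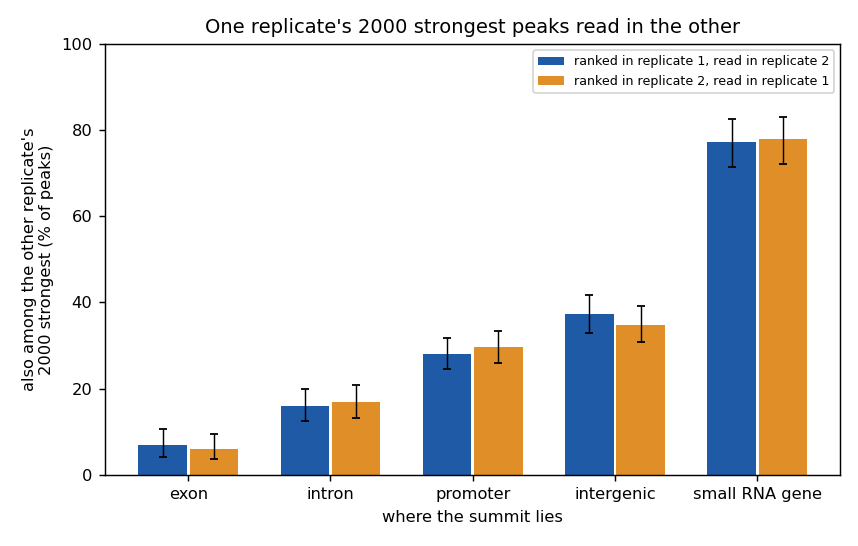
Share (%) of the 2000 strongest peaks of 1 replicate that were also among the 2000 strongest of the other, by where the summit lies; blue bars were ranked in replicate 1, orange bars in replicate 2, and error bars are exact 95% binomial intervals. Exonic peaks are lowest, at 6.91% and 6.03%, and peaks near small RNA genes highest, at 77.3% and 78.1%.

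A weaker requirement, any candidate at all in the other replicate, was met by 64.7% of the exonic peaks of replicate 1 and 56.7% of those of replicate 2. Near small RNA genes the same shares were 94.96% and 95.8%. The 2 lists of exonic peaks overlapped at 15 peaks, which is 5.45% of the list of replicate 1 and 5.32% of that of replicate 2. Of the members, 98 overlapped the exonic list of replicate 1, 77 that of replicate 2, 14 both, and 76 neither. The 14 were in dos-3, pals-26, pks-1, F13D12.3, hmr-1, lit-1, zip-2, alg-2, dyf-17, col-180, nspg-10, cla-1, tos-1 and daf-5, of which tos-1 and daf-5 were chosen for naming after their values were seen. Of these 14, 9 were in the larger thresholded set, beside 8.86% of all members and 0.533% of all candidates. The 14 were chosen by signal in the same libraries as that set, so nothing is read from the excess.

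Most members were in coding sequence, as were lower-ranked exonic candidates. Coding sequence held 211 members (89.03%, beside 88.8% of lower ones), 3′ UTR 20 (8.44%, beside 9.69%) and 5′ UTR 4 (1.69%, beside 1.06%). Internal exons held 155 members, last exons 65, first exons 13 and the exon of single-exon transcripts 4. Last exons were 27.4% (21.8 to 33.6) of members and 22.6% of lower candidates, and single exons 1.69% (0.462 to 4.26) and 0.436%. Members lay a median of 2064 bp from the transcript start and 62.5% along the gene, and lower candidates 2117 bp and 61.4%.

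The exons that held members were longer. Their median length was 471 bp (quartiles 270 and 828), against 352 bp (195 and 638) for lower exonic candidates. The whole 304 bp of the peak lay inside the exon in 99 members, or 41.8% (35.4 to 48.3), and in 27.1% of lower ones. The distance from summit to the nearest exon edge had a median of 115 bp, against 76 bp. The longest was a 12217 bp exon of ttn-1, the titin gene. Strand and chromosome showed little contrast: 51.9% of members lay in plus-strand genes, beside 51.3%, and the X chromosome held 33 members (13.9%), beside 16.96% of lower candidates.

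GC content at the summits was higher than in lower exonic candidates. Within 50 bp of the summit, the members had a mean of 48.1% ± 8.58 (SD, n = 237), against 41.96% ± 7.53 (SD, n = 24522), and the medians were 48.5% and 41.6%. The other strongest candidates had a median of 46.5%. Among exonic candidates the median fell from 50.5% at ranks 501 to 1000 to 40.6% from rank 64001 on. In windows 300 bp to either side of the members the median was 39.1%. It was 36.6% at lower exonic candidates and 36.1% at the other strongest. The summit was richer in GC than its flanks in 84.8% of members, beside 70.8% of lower exonic and 80.8% of the other strongest candidates. The median excess over the flanks was 6.93 points in members, 4.46 in lower exonic and 9.41 in the other strongest candidates. The nearest exon edge was a median of 115 bp from the summit in members and 76 bp in lower exonic candidates. Flanks therefore often lay outside that exon, and the part of this in the excess was not tested. GC content is known to affect amplification and sequencing, and its part in the signal was not tested.

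Within coding sequence alone the gap was much the same. The median was 48.5% in 211 members and 42.6% in lower candidates. In 3′ UTRs it was 36.6% in 20 members and 32.7% in lower candidates. The highest values were 69.3% in vab-10, the spectraplakin gene, 68.3% in Y43F8B.1, and 67.3% in col-51, col-180, dyf-17 and pgl-1, the last a gene of germ granules. The lowest were 26.7% in tpxl-1, which encodes an activator of Aurora kinase, 27.7% in tbc-2, 29.7% in dpl-1, which encodes the partner of E2F, and 30.7% in cone-1 and Y51H7C.12.

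**Figure D4:**
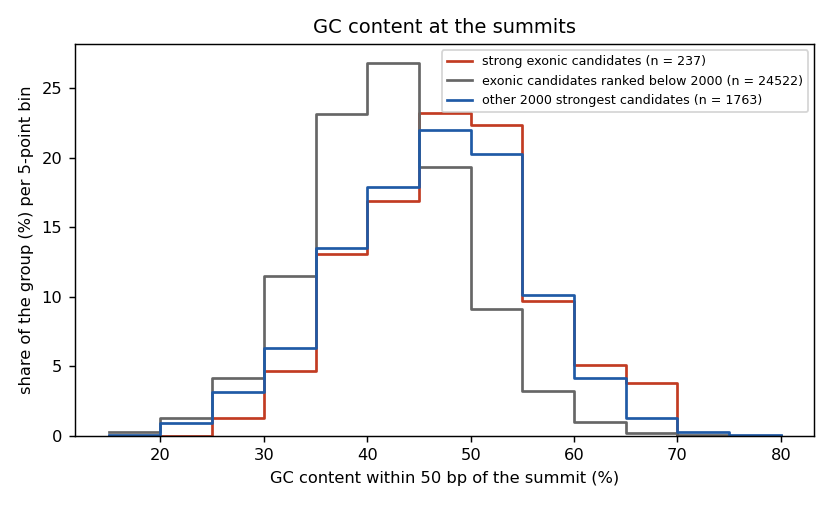
GC content (%) within 50 bp of the summit, as the share of each group per 5-point bin, for members (red), exonic candidates ranked below 2000 (grey) and the other candidates of the 2000 strongest (blue). The members' median is 48.5%, that of lower exonic candidates 41.6% and that of the other strongest 46.5%.

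Repeated sequence was uncommon at the members. At least 50% of the 31-base words within 100 bp of the summit occurred more than once in the genome in 5 members (2.11%), beside 1.76% of lower exonic candidates and 16.6% of the other strongest. The 5 were in F55B11.3 (95.3%), Y95D11A.5 (90.6%), tos-1 (81.9%), ttn-1 (70.8%) and lpr-1 (63.2%), the last a lipocalin-related gene. Reads from such sequence can be shared between copies, so the place of these 5 is uncertain. None of the 5 was in the larger thresholded set. At least 1 repeated word was present in 26 members (11.0%), beside 7.94% of lower exonic and 41.7% of the other strongest candidates.

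Cuticle collagens were the gene list with the most members. Of 174 genes on the list 139 held an exonic candidate of any rank, and 17 held a member (12.2%), where over all coding genes 234 of 11147 did (2.10%). These 17 were 7.17% of members, beside 0.820% of lower exonic candidates, a contrast that was not tested. The share was 4.61% where the rule was applied to replicate 2's list alone, 4.73% with that of replicate 1 alone, and 3.78% with the 4000 strongest candidates. All 17 summits were in coding sequence, 12 in the last exon, 3 in single-exon genes and 2 in internal exons. Only the member in col-180 was in the larger thresholded set. A member in rol-1, also a cuticle collagen gene but not on the list by name, was in that set too, with 24.4 in replicate 1 and 39.02 in replicate 2.

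Signals at the collagens were moderate in both replicates. Replicate 1 ran from 22.3 to 36.6 with a median of 29.4 over 16 members with a candidate, and replicate 2 from 14.97 to 34.8 with a median of 24.5 over 15. The strongest were col-111 (chrIV:4656155-4656458) with 35.2 in replicate 1 and 23.2 in replicate 2, col-180 (chrX:11711413-11711716) with 35.8 and 34.8, and col-71 (chrII:3500483-3500786) with 27.1 and 31.3. All 3 had a candidate in each replicate, as did 14 of the 17.

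Glycine codons were frequent around these summits, although their share alone does not show a Gly-X-Y repeat. GGN codons were a median of 24.2% of in-frame codons in the windows of the 17 collagen members (range 12.1 to 66.7). In other coding members the median was 6.06% (range 0 to 63.6). In lower-ranked collagen candidates it was 27.3%, about as high as in the collagen members. GC was high as well: 16 of the 17 were above the median GC of all members, with a median of 59.4%, beside 57.4% in lower-ranked collagen candidates. Whether GC followed the share of GGN codons from summit to summit was not tested. The part of GC in the collagens' rank was not tested. Collagen genes resemble each other, and 4 of the 17 held a repeated 31-base word, none over 50% of them.

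**Figure D5:**
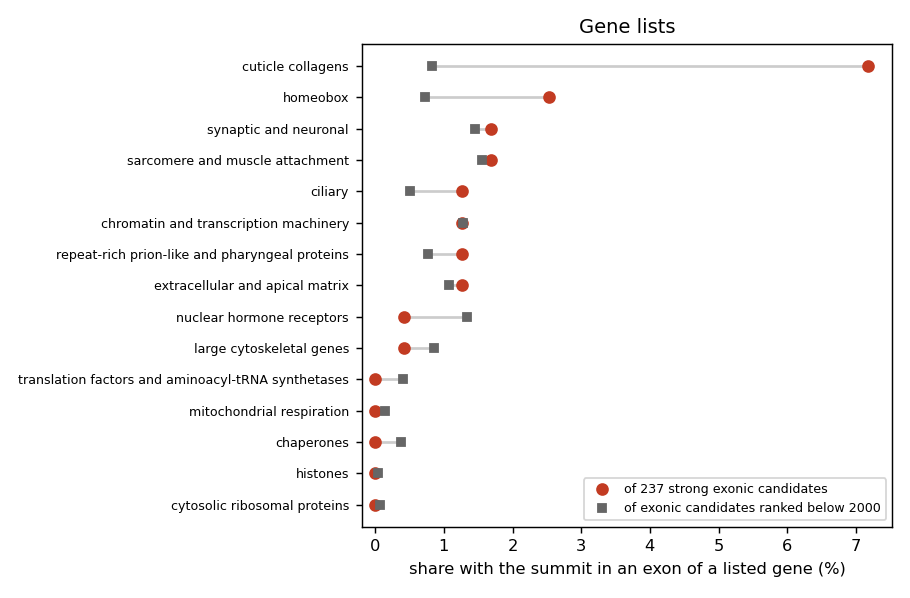
Share (%) of the 237 members (red circles) and of exonic candidates ranked below 2000 (grey squares) whose summit lay in an exon of a gene on each of 15 lists. Cuticle collagens stand at 7.17% and 0.820%, homeobox genes at 2.53% and 0.730%, and 5 lists have no member.

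A gene for basement membrane collagen also held members. The gene let-2, a type IV collagen of basement membranes, held 2 members 1715 bp apart. The stronger (chrX:16384924-16385227, exon 12 of 18) had 44.2 in replicate 1 and no candidate in replicate 2, and the other (chrX:16383209-16383512, exon 14 of 18) had 30.2 and 15.4. Replicate 2 was thus the lower at the only let-2 member with a value in each replicate. With lpr-1 (33.0 and 21.1), they were the 3 members of the matrix list of 74 genes. Of its 66 genes with an exonic candidate, 2 held a member. The list's share of members was 1.27%, close to the 1.07% of lower candidates.

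Homeobox genes held 6 members, or 2.53%, beside 0.730% of lower candidates. Of 129 genes on the list, which also takes in zinc finger and AT-hook names, 91 held an exonic candidate and 6 a member; without those names it was 5 of 64. Beside unc-62 and vab-7, both in the larger thresholded set, they were attf-3 (33.6 in replicate 2, none in replicate 1), hmbx-1 (23.6 in replicate 1 and 27.3 in replicate 2), ceh-91 (27.5 and 21.9) and ceh-39, a ONECUT-class gene that acts as an X signal in sex determination (26.5 and 28.0). Signals in replicate 2 ran from 21.9 to 53.0 in the 6.

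Chromatin genes held 3 members among 87 with an exonic candidate, 2 of them in the larger thresholded set. In set-25, which encodes a methyltransferase of histone H3 lysine 9, the signal was 37.8 in replicate 1 and 25.7 in replicate 2 (chrIII:13292524-13292827, exon 2 of 8). In set-16, which encodes an MLL-type methyltransferase of histone H3 lysine 4, it was 41.1 and 23.2 (chrIII:13648653-13648956, exon 9 of 15). In mes-2, the Polycomb methyltransferase of histone H3 lysine 27, it was 31.3 and 22.8. Replicate 1 was the higher in all 3. Their share of members, 1.27%, was that of lower candidates, 1.28%.

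Muscle, cilium and synapse genes held 3 or 4 members each. On the sarcomere list they were unc-54, the main body-wall muscle myosin (32.5 in replicate 1 and 27.7 in replicate 2), tln-1, or talin (28.1 and 22.98), ttn-1 (14.5 and 35.8) and vab-10 (34.8 and 19.9). On the ciliary list they were dyf-17, the BBSome gene bbs-1 (36.8 and 20.98) and osm-3, a kinesin-2 motor (30.2 and 24.2). On the synaptic list they were cla-1, which encodes an active zone protein (31.5 and 28.9), glr-1, a glutamate receptor (34.1 and 25.9), nlp-2, a neuropeptide-like gene (28.1 and 20.7), and ptp-3, a receptor phosphatase with 22.1 in replicate 2 and none in replicate 1. The shares of members were 1.69%, 1.27% and 1.69%, beside 1.56%, 0.506% and 1.45% of lower candidates. Of these 11 members, dyf-17 alone was in the larger thresholded set.

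The remaining lists were thin. Repeat-rich genes held 3 members among 60 genes with an exonic candidate: pqn-32 (23 in replicate 1 and 36.7 in replicate 2), pqn-41 and abu-14 (34.9 and 17.4). These were 1.27% of members, beside 0.763% of lower candidates. Nuclear hormone receptors held 1 member among 176 genes with an exonic candidate, nhr-183 (40.4 and 12.1), and large cytoskeletal genes 1 among 53, the unconventional myosin hum-4 (23.6 and 25.9). Each was 0.422% of members, beside 1.33% and 0.860% of lower candidates. Ribosomal proteins, histones, chaperones, translation factors with aminoacyl-tRNA synthetases, and mitochondrial respiration held 0 of 237 members, with an exact 95% interval of 0 to 1.54%. Lower exonic candidates fell in these 5 lists at 0.0326% to 0.3996%, so the members are too few to set them apart.

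The homeodomain cores searched were no more frequent at members than in the comparison groups. TAATCC, on either strand, was within 50 bp of the summit in 5 members, or 2.11% (0.688 to 4.85), beside 3.503% of lower exonic candidates and 3.35% of the other strongest. It stood in 3 and 6 of the windows 300 bp to the lower- and higher-coordinate side. The 5 were in pals-26, oac-4, an acyltransferase homolog (41.4 in replicate 2, none in replicate 1), bbs-1, tub-2, a Tubby family gene (22.9 and 27.2), and F25F8.1 (22.9 and 27.3). TAATTA, another homeodomain core, was in 3 members (1.27%), all in 3′ UTR, beside 2.12% of lower candidates. These were in tbc-2 and, named after their values were seen, wrm-1 and gly-6. It was in 0 of 211 coding members, with an exact 95% interval of 0 to 1.73%, beside 1.58% of lower coding candidates.

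Other words differed more between classes of strong candidates than between exonic ranks. GGGCGG was in 5 members (2.11%), beside 1.81% of lower exonic and 6.64% of the other strongest candidates. Those members were in pqn-41, dyf-17, attf-3 and, named after their values were seen, vab-19 and W09D6.1. GAGAGA was in 11 members (4.64%), beside 5.44% and 12.4%. CANNTG, the E-box, was in 46.8% (40.3 to 53.4), beside 43.2% and 28.3%. GCGCAA was in 5 (2.11%), beside 1.60% and 6.07%, and GTTCGA in 12 (5.06%), beside 4.73% and 8.68%. All words were read on both strands, and CANNTG, being its own complement, counts each place only on 1 of them. A word in a window is only letters there, and no binding is read from it.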

How the data were processed

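The peak signal is the authors' deposited value, and its scale is not stated. The −log10 of the global IDR, also deposited by the authors, was turned back into the IDR. Per the files deposited with the samples, peaks came from alignments on ce11 and a control, which is not analysed here; neither aligner nor peak caller is named there (not given in the sources used here). The lists show no read counts.

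Genes came from Ensembl release 115 (19973 protein-coding genes and 1107 small RNA genes) and sequence from the RefSeq assembly WBcel235, whose chromosome lengths held every candidate. The signals of replicates 1 and 2 came from their own ranked lists, from the overlapping peak with the closest summit. A share of repeated words is the share of 31-base words within 100 bp of the summit that the assembly holds at more than 1 place. Comparison groups were the 24522 exonic candidates of lower rank and the other 1763 of the 2000 strongest. With 1 group of 2 replicates, nothing was tested.

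Members and lists were chosen with earlier results of these data known. Genes named were those of the 20 strongest members, of members in a thresholded set, with 2 members, at the limit of the rule, with extreme GC or repeats, with TAATCC, and the 3 strongest of each list. Other names are marked, except those given to complete a list of members. Alternatives changed the number of peaks taken, the promoter and small RNA distances, the position of a peak and the list used. Scripts were checked on simulated data. The tools were Python 3.11.15, scipy 1.17.1 for intervals, numpy 2.4.6 and pandas 2.3.3 for tables, and matplotlib 3.10.9 for figures.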

Additional observations from a re-analysis of the deposited data

How the results depend on the processing

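Of 90 values under an alternative, for 10 results, 79 stayed within the limits set for each result and 11 moved. The 79 are no measure of stability, because some alternatives hardly changed the members. Peak midpoints gave 237 members, as did the main rule, and the conservative ranked list gave 236. The limits, not given here, were also wide. With a wider promoter stretch, 167 members counted as unchanged, as did every median GC, from 46.5% to 50.5%. Taking the 1000 strongest candidates gave 64 members, of which 32.8% overlapped the larger thresholded set and 92.2% had a candidate in both replicates' lists. Taking 4000 gave 662 members, with 3.17% and 79.3%, and 3.78% in cuticle collagen genes. The conservative thresholded set held 4.64% of members, and 11.0% had any repeated word. With 1 replicate's list in place of the larger list, the number of members was 275 to 282, the share found in the other replicate 56.7% to 64.7%, cuticle collagens 4.61% to 4.73%, the larger thresholded set 5.67% to 5.82%, repeated words 1.42% to 1.82% and last exons 24.5% to 30.2%. Median GC was then 46.5% and coding sequence 90.5% to 90.8%. The alternatives for cuticle collagens and for reading 1 replicate in the other were chosen after seeing the data; the latter gave 5.95% and 5.26% with 1000 peaks and 9.66% and 9.32% with 4000. The cause of these moves was not tested. No paired analysis was possible because there is 1 group. Unknown depth, 2 replicates and the absence of an analysed control limit every value.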

Other observations

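A few members lay close together on a chromosome. The pair with the highest signals was zip-2 and dos-3 on chromosome III, whose summits were 1359 bp apart in genes on opposite strands, and both were in the conservative thresholded set. The collagen genes col-183 and col-184, also on opposite strands, held members 3065 bp apart on the X chromosome, with 26.4 and 30.2 in replicate 1 and 24.5 and 19.1 in replicate 2. Besides let-2, 2 genes held a pair of members. In K06A9.1 the summits were 629 bp apart in a single exon of 4527 bp, with 28.2 and 21.5 in replicate 1 and 19.5 and 39.3 in replicate 2. In W06H8.6 they were 4457 bp apart, 1 in coding sequence (25.4 in replicate 1 and 24.4 in replicate 2) and 1 in the 3′ UTR (35.8 and 24.1), where a noncoding RNA gene also lies, so that signal of the pair of genes there cannot be told apart. The other pairs of genes within 10000 bp, W04B5.3 with W04B5.8 and C13F10.7 with gei-6, named after their values were seen, had summits 7614 bp and 3865 bp apart.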
